A study of Mus musculus with 7 samples.

Results

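The transcripts described are those of the mitochondrial ribosomal proteins, taken as every gene whose platform symbol reads Mrpl (large subunit) or Mrps (small subunit) followed by a number and at most 1 letter. The array held 156 probe sets that name such a gene and no other. They belong to 76 genes, 47 of the large and 29 of the small subunit, out of 18194 genes with a single-gene probe set. Each gene was represented by its brightest probe set, the one with the highest mean over the 7 arrays, and all 76 lay above the level filter used for testing. Mrpl30 and Mrpl53 had only probe sets that name several genes and are not included.

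Left lungs were taken from 8-week-old mice, 3 with a Gata5 knockout (KO) and 4 wild-type (WT), and total RNA from each was hybridised to 1 Affymetrix Mouse Genome 430 2.0 array. Gata5 encodes a zinc-finger transcription factor. The labels call the samples of a group biological replicates and give neither the strain, the sex, the deleted exons nor the cell types in which the deletion acts. All levels below are log2 values as deposited, and a change is the KO mean minus the WT mean on that scale.

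The mitochondrial ribosome translates the few messages encoded by mitochondrial DNA, all of them for subunits of the respiratory chain and ATP synthase. Its RNAs come from the mitochondrial genome, whereas every one of its proteins is encoded in the nucleus, made on cytosolic ribosomes and imported. Some of the proteins descend from bacterial ribosomal proteins, and the others have been added in the mitochondrial lineage. The lung needs this machinery in all of its cell types, and alveolar type 2 cells, which make surfactant, are known for abundant mitochondria.

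Gata5 itself read 4.98, 4.71 and 5.15 on KO arrays, against 5.32, 5.53, 5.85 and 5.47 on WT arrays, with its brighter probe set (change -0.60, adjusted p = 0.030 with limma over all single-gene probe sets). Both groups lie low on the scale, and whether the probe set falls in the deleted part is not given. Xist, an RNA of the inactive X chromosome, stood at 11.51 in WT replicate 4 against 3.66 to 3.89 on the other 6 arrays, so that mouse differs from the others in a sex-linked transcript. The beta-actin 3′ control probe set exceeded the 5′ one by 4.74, 5.39 and 4.76 on KO arrays, against 4.31, 3.88, 4.27 and 3.94 on WT arrays, with no overlap (exact two-sided permutation p = 0.0286, which 35 splits cannot go below). The same held for beta-actin 3′ minus middle (3.02 ± 0.28 in KO, 2.42 ± 0.14 in WT; exact permutation p = 0.0286) and Gapdh 3′ minus middle (4.01 ± 0.26 in KO, 3.47 ± 0.16 in WT; exact permutation p = 0.0286), each as mean ± SD with n = 3 KO and n = 4 WT arrays. These control differences move with genotype and cannot be told apart from it here.

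The family as a whole moved little. Over the 76 genes the median change was -0.10, against -0.003 over all 13285 genes tested, and the changes ran from -0.66 to 0.41. With limma and Benjamini-Hochberg adjustment over all genes tested, 10 members fell in KO lungs, 5 rose and 61 did not pass an adjusted p of 0.05. That is 13.2% lower and 6.58% higher, beside 10.02% lower and 5.56% higher over all genes, and 19.7% called in either direction beside 15.6%. Those shares are near the background, so the counts do not set the family apart from the rest of the array. A single member, Mrps18a, changed by at least 1.5-fold, as did 2.84% of all genes tested. With any of the 3 control differences as a covariate 0 members passed (lowest adjusted p = 0.114, limma). In the order above, 20, 10 and 25 members were under an unadjusted p of 0.05 (limma). Of the 15 called members 14 or 15 kept the sign of their change. Over all genes tested 0, 0 and 5 passed in the same fits, so the loss of calls is not particular to the family. The counts over all genes under an unadjusted p of 0.05 are given in the last section.

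The subunits differed in their medians, though the difference was not tested. Among the 47 large subunit genes 7 fell (14.9%) and 4 rose (8.51%). There, 31 changes were below 0 and 16 above it, and the median change was -0.13. Among the 29 small subunit genes 3 fell (10.3%) and 1 rose (3.45%), with 15 changes below 0, 14 above it and a median of -0.02. Over all genes tested 10.02% were lower and 5.56% higher. The 3 KO values were beneath the 4 WT values in 18 members, which is 23.7% beside 17.5% of all genes, and above them in 8 members, which is 10.5% beside 12.1%. Of the 47 members with a bacterial counterpart 5 fell (10.6%) and 2 rose (4.26%), with a median change of -0.10. Of the 29 members without a counterpart 5 fell (17.2%) and 3 rose (10.3%), with a median of -0.14. This contrast was not tested. The balance of directions depended on the scaling. A further quantile normalization gave 902 genes lower and 1191 higher over the whole table, in place of 1331 and 739, with 5 large subunit genes lower and 6 higher and 3 small subunit genes lower and 2 higher. Cyclic loess gave 1076 lower and 942 higher over the whole table, with 6 and 6 in the large and 3 and 2 in the small subunit. Centring each array on its median gave 1610 lower and 552 higher, with 9 and 3 in the large and 5 and 0 in the small subunit.

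**Figure D1:**
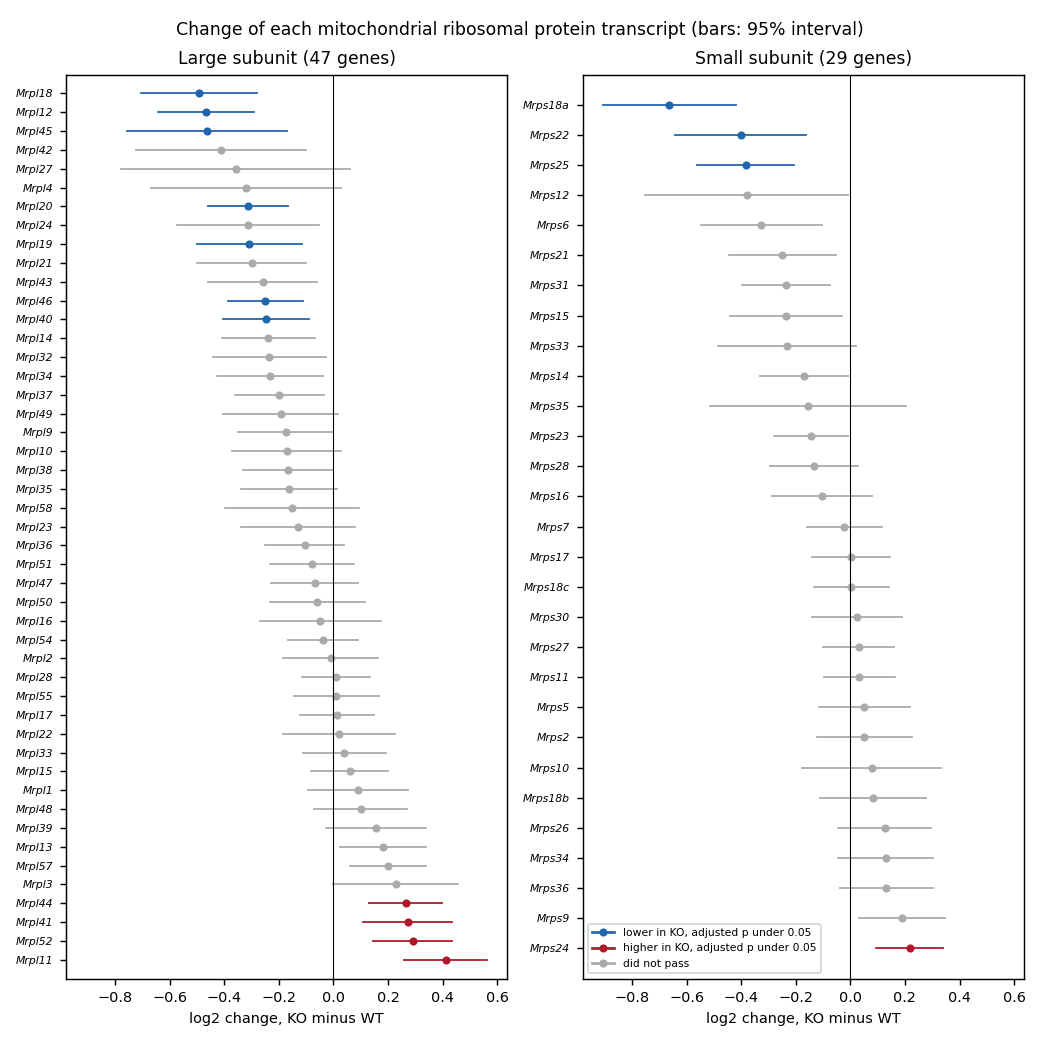
Change of each of the 76 mitochondrial ribosomal protein transcripts, KO minus WT on the log2 scale (horizontal axis), for the large subunit (left) and the small subunit (right), with the 95% interval of each from limma. Blue marks the 10 genes that fell, red the 5 that rose and grey the 61 that did not pass; the changes run from -0.66 (Mrps18a) to 0.41 (Mrpl11).

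Promoters of the family were read from RefSeq for the mouse build GRCm38.p6, as windows of 250 bases before each annotated start, and 67 of the 76 members had 1 or more (73 windows). Nuclear genes for mitochondrial proteins are known to be served by NRF1, by the ETS factor GABP and by YY1, so 1 motif of each was searched on both strands. GCGCANGCG (NRF1) was found in 12 member windows, 16.4%, against 5.16% of all 32851 windows. CCGGAAGT (ETS, GABP) was found in 10, 13.7% against 2.88%, and AAGATGGCG (YY1) in 2, 2.74% against 0.606%. No member window held more than 1 kind of motif, and 24 members held any. Of the 14 members past the threshold that had a window, 9 were lower and 5 higher. Among them the NRF1 letters stood before an annotated start of Mrpl12, Mrpl45 and Mrpl44, and the ETS letters before that of Mrps22 and Mrpl18. The 125 bases up to the start are shown for the 4 in which a match lies in that stretch. The NRF1 letters stand before a start of genes that fell (Mrpl12, Mrpl45) and of 1 that rose (Mrpl44). The ETS letters stand before a start of Mrps22, which fell. Capitals mark the match on either strand, and each sequence reads 5′ to 3′ on the strand of its gene: Mrpl12 at chr11:120484512-120484636 on the plus strand, Mrpl45 at chr11:97315591-97315715 on the plus strand with 2 matches, Mrpl44 at chr1:79775893-79776017 on the plus strand and Mrps22 at chr9:98601680-98601804 on the minus strand.
Mrpl12: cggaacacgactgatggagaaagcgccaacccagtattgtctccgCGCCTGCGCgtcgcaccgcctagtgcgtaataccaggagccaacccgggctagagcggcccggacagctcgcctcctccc
Mrpl45: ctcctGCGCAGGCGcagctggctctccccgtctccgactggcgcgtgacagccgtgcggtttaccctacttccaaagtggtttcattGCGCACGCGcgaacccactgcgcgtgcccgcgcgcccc
Mrpl44: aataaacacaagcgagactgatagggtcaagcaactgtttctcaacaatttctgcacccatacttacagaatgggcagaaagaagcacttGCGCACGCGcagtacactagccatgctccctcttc
Mrps22: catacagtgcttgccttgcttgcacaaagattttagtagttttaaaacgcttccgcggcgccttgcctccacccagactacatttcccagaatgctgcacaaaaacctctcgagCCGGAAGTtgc
A match is a description of the letters and no evidence of binding. The nearest match began 80 bases before the start in Mrpl12, 38 in Mrpl45, 35 in Mrpl44 and 11 in Mrps22. In Mrpl18 it began 240 bases before the start, outside such a stretch. The starts behind the Mrpl45 and Mrpl18 matches lie inside the annotated genes, which span chr11:97314923-97329920 and chr17:12911345-12917787. Their windows thus stand before an internal start, and those of Mrpl12, Mrpl44 and Mrps22 before the outer end of the gene.

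In the large subunit, the transcript of Mrpl12 fell, and that of Mrpl11 rose on its brightest probe set but not on the plain set above the level filter. Mrpl12, the counterpart of bacterial L7/L12 that forms the stalk, read 7.52, 7.50 and 7.61 on KO arrays, against 7.98, 7.86, 8.06 and 8.14 on WT arrays. The KO values cluster tightly under all WT values, and the change was -0.47 with a standard error of 0.077 (1.38-fold lower, adjusted p = 0.0094). Its promoter is the first of those shown above. Mrpl11, the counterpart of the bacterial L11 at the stalk base, read 9.71, 9.78 and 9.66 on KO arrays, against 9.40, 9.27, 9.34 and 9.21 on WT arrays. The KO arrays all lay above the WT arrays, with a change of 0.41, SE 0.067 (1.33-fold higher, adjusted p = 0.0091), the largest rise in the family on the brightest probe sets. That rise is on 1437131_x_at, a probe set whose name marks probes that may cross-hybridise. The x set 1437839_x_at gave a change of 0.37, whereas 1417918_at gave -0.14, from 8.32, 8.29 and 8.04 on KO arrays and 8.32, 8.28, 8.29 and 8.54 on WT arrays. Mrpl10, the counterpart of the bacterial L10 that holds L7/L12, changed by -0.17 and did not pass (adjusted p = 0.195).

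3 further large subunit members with bacterial counterparts fell. Mrpl18, whose bacterial counterpart binds 5S rRNA, read 7.33, 7.54 and 7.19 on KO arrays, against 7.95, 7.73, 7.82 and 7.89 on WT arrays (change -0.49, SE 0.093, 1.41-fold lower, adjusted p = 0.0136). It was the largest fall in the large subunit, and KO replicate 2 lay nearest to the WT values. Mrpl20, the counterpart of a bacterial protein that binds early in assembly of the large subunit, read 8.79, 8.90 and 8.84 on KO arrays, against 9.06, 9.18, 9.24 and 9.15 on WT arrays (change -0.31, SE 0.064, adjusted p = 0.0177). Mrpl19, whose bacterial counterpart lies at the face between the subunits, read 6.75, 6.76 and 6.46 on KO arrays, against 6.92, 6.99, 6.92 and 7.03 on WT arrays (change -0.31, SE 0.085, adjusted p = 0.0432). KO replicate 3 stands well under the other KO arrays there, and without it the change was -0.21 and did not pass. The other probe set of Mrpl19 above the level filter, 1440324_at, gave a change of 0.01.

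Among the large subunit proteins that bacteria lack, 3 fell. Mrpl45, which lies by the exit of the peptide tunnel and helps to tether the ribosome to the inner membrane, read 6.57, 6.69 and 6.18 on KO arrays, against 6.88, 7.14, 6.81 and 6.94 on WT arrays (change -0.46, SE 0.13, 1.38-fold lower, adjusted p = 0.0447). The KO values spread over 0.27 (SD, n = 3) and WT values over 0.14 (SD, n = 4), the KO spread coming mostly from replicate 3, and the groups only just stay apart. Mrpl46 read 7.35, 7.38 and 7.51 on KO arrays, against 7.63, 7.67, 7.69 and 7.66 on WT arrays (change -0.25, SE 0.061, adjusted p = 0.0301). Mrpl40, whose human gene lies in the region deleted in velocardiofacial syndrome, read 7.67, 7.91 and 7.75 on KO arrays, against 8.00, 8.05, 8.00 and 8.04 on WT arrays (change -0.25, SE 0.069, adjusted p = 0.0460). The WT arrays sit close together in both genes (SD 0.025 for Mrpl46 and 0.026 for Mrpl40, n = 4), and KO replicate 2 of Mrpl40 lies just beneath them.

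The other 3 rises of the large subunit were also in proteins that bacteria lack. Mrpl52 read 10.51, 10.57 and 10.54 on KO arrays, against 10.21, 10.18, 10.36 and 10.25 on WT arrays (change 0.29, SE 0.063, adjusted p = 0.0214). Mrpl44, which has the fold of an RNase III enzyme and is mutated in a human infantile cardiomyopathy, read 10.46, 10.56 and 10.47 on KO arrays, against 10.20, 10.30, 10.23 and 10.20 on WT arrays (change 0.26, SE 0.059, adjusted p = 0.0231). Mrpl41 read 10.34, 10.43 and 10.34 on KO arrays, against 10.20, 9.96, 10.09 and 10.14 on WT arrays (change 0.27, SE 0.071, adjusted p = 0.0375). In all 3 the KO arrays lie together above every WT array, and the rise was on a probe set of suffix a. The plain sets above the level filter of the same genes did not show it, whereas the x set of Mrpl44 did in size without passing. For Mrpl52 the set 1415761_at gave -0.12 and 1415762_x_at gave -0.01. For Mrpl44 the set 1426651_at gave -0.27, from 6.60, 6.66 and 6.53 on KO arrays and 6.87, 6.76, 6.76 and 7.07 on WT arrays, and 1437391_x_at gave 0.21 (adjusted p = 0.0525 with limma over all single-gene probe sets), from 10.28, 10.26 and 10.35 on KO arrays and at most 10.15 on WT arrays. For Mrpl41 the set 1428589_at gave -0.00.

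In the small subunit the largest fall of the whole family was that of Mrps18a, 1 of 3 mammalian versions of bacterial S18. Structures of the mammalian mitochondrial ribosome place its protein in the large subunit despite its name. It read 6.74, 6.35 and 6.58 on KO arrays, against 7.08, 7.16, 7.25 and 7.39 on WT arrays, with a clear gap between the groups (change -0.66, SE 0.11, 1.58-fold lower, adjusted p = 0.0091). The other versions gave no such fall: Mrps18b changed by 0.08 (adjusted p = 0.508) and Mrps18c by 0.00 (adjusted p = 0.980). Mrps24, the counterpart of bacterial S3, read 10.37, 10.43 and 10.45 on KO arrays, against 10.20, 10.19, 10.23 and 10.18 on WT arrays (change 0.22, SE 0.054, adjusted p = 0.0318). It was the only small subunit gene to rise, and its other probe set, 1450865_s_at, gave -0.13 with overlapping groups.

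The other 2 falls in the small subunit were in proteins without a bacterial counterpart. Mrps25 read 6.84, 7.01 and 6.72 on KO arrays, against 7.23, 7.32, 7.20 and 7.21 on WT arrays (change -0.38, SE 0.078, 1.30-fold lower, adjusted p = 0.0173). Its other probe sets, 1418716_at and 1418717_at, gave -0.23 and 0.02. Mrps22, mutated in human mitochondrial disease, read 6.78, 7.16 and 6.91 on KO arrays, against 7.20, 7.41, 7.49 and 7.31 on WT arrays (change -0.40, SE 0.10, 1.32-fold lower, adjusted p = 0.0369). Its highest KO array, replicate 2, lies just under its lowest WT array, and its promoter with the ETS letters close to the start is the last of those shown above.

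**Figure D2:**
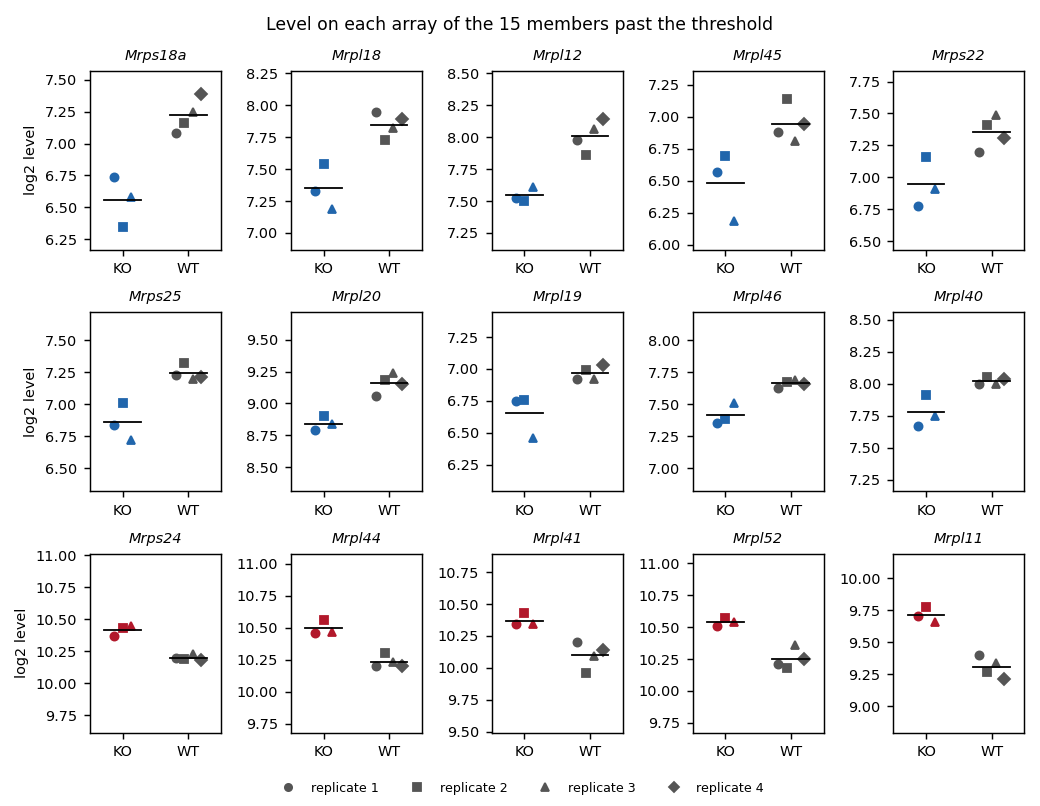
Log2 level on each array (vertical axis, every panel spanning the same 1.4 log2 units) of the 15 mitochondrial ribosomal protein genes past the threshold, KO left of WT in each panel. Points are arrays, shaped by replicate number, and lines are group means. In all 15 panels the 3 KO arrays and the 4 WT arrays do not overlap. The genes were chosen by their difference on these same arrays, so this adds no support.

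The 3 members of each subunit that came closest to the threshold without passing it follow. Mrpl21 read 8.25, 8.31 and 7.95 on KO arrays, against 8.46, 8.48, 8.49 and 8.45 on WT arrays (change -0.30, adjusted p = 0.0517), and its 2 plain probe sets gave 0.15 and 0.20. Mrpl57 read 9.63, 9.66 and 9.66 on KO arrays, against 9.49, 9.53, 9.37 and 9.41 on WT arrays (change 0.20, adjusted p = 0.0574), and its other set, 1460225_at, gave -0.16. The groups do not overlap on the brightest sets of either gene, but the sets of each disagree in sign. Mrpl14 read 7.58, 7.59 and 7.67 on KO arrays, against 7.80, 7.82, 7.77 and 8.02 on WT arrays (change -0.24, adjusted p = 0.0615). Mrps31 read 7.90, 8.08 and 7.93 on KO arrays, against 8.22, 8.12, 8.19 and 8.30 on WT arrays (change -0.24, adjusted p = 0.0537). Mrps21, the counterpart of bacterial S21, read 9.04, 9.36 and 9.08 on KO arrays, against 9.38, 9.36, 9.41 and 9.49 on WT arrays (change -0.25, adjusted p = 0.0814). In Mrps21 KO replicate 2 equals the lowest WT array while the other 2 KO arrays lie apart from WT. Mrps6, the counterpart of bacterial S6, read 9.30, 9.58 and 9.52 on KO arrays, against 9.71, 9.86, 9.95 and 9.65 on WT arrays with its brightest set (change -0.33, adjusted p = 0.0541). Its set 1424440_at read 7.23, 7.56 and 7.56 on KO arrays, against 8.09, 8.26, 8.13 and 8.08 on WT arrays, a change of -0.69 that exceeds the largest change on any member's brightest set. A larger one, of the other sign, was on 1430798_x_at of Mrpl15, which read 7.56, 7.48 and 7.27 on KO arrays, against 6.69, 6.30, 6.35 and 6.23 on WT arrays (change 1.04, adjusted p = 0.0037 with limma over all single-gene probe sets). The sets of Mrpl15 disagree, since 1425189_a_at gave -0.50 (adjusted p = 0.0407) and the brightest set gave 0.06.

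Some of the other members that did not pass had large changes, most of them with wide KO spreads. Mrpl42 (-0.41), Mrpl27 (-0.36), Mrps12 and Mrpl4 changed by as much as many of the called members. Mrps12, the counterpart of the bacterial decoding-site protein S12, read 9.45, 8.88 and 9.61 on KO arrays, against 9.66, 9.61, 9.89 and 9.61 on WT arrays (change -0.38, adjusted p = 0.138). Mrpl4, the counterpart of bacterial L4, read 8.28, 7.55 and 8.08 on KO arrays, against 8.29, 8.24, 8.24 and 8.39 on WT arrays (change -0.32, adjusted p = 0.172). In both genes KO replicate 2 is by far the lowest array, the opposite of its place in most of the family. Mrps35 read 6.57, 7.22 and 6.55 on KO arrays, against 6.90, 6.85, 6.90 and 7.09 on WT arrays (change -0.16, adjusted p = 0.499), with KO replicate 2 above every WT array and the other KO arrays below them all. Mrpl24 and Mrpl43 kept their groups apart without passing, with changes of -0.31 (adjusted p = 0.0954) and -0.26 (adjusted p = 0.0786). In Mrpl24 the wider spread was in WT (SD 0.118 in KO, 0.203 in WT). On the other side of 0, Mrpl3, the counterpart of bacterial L3, changed by 0.23 with overlapping groups (adjusted p = 0.144). Mrpl13 (0.18) and Mrps9 (0.19), counterparts of bacterial L13 and S9, had KO arrays all above WT arrays and adjusted p-values of 0.105 and 0.0954. 24 members lay within 0.1 of 0, among them Mrps17 at 0.00. These genes were picked after their values were seen. The median SD over members was 0.124 among the 3 KO arrays and 0.0748 among the 4 WT arrays, beside 0.115 in KO and 0.0885 in WT over all genes tested.

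The calls can be set out by the kind of probe set. An Affymetrix name that ends in plain at marks a set designed for 1 transcript, an added a marks transcripts of 1 gene, an added s marks shared transcripts that may belong to several genes, and an added x marks probes that may cross-hybridise. Of the 42 members represented by a plain set 8 fell and 0 rose, with a median change of -0.13. Of the 23 represented by an a set 1 fell and 3 rose, of the 7 by an s set 1 fell and 1 rose, and of the 4 by an x set 0 fell and 1 rose. All 5 rises are thus on sets of suffix a, s or x. These sets were also brighter, with mean levels over all arrays of 9.48 (Mrpl11) to 10.37 (Mrpl52). The sets of the 10 falls had means of 6.74 (Mrpl45) to 9.02 (Mrpl20). Kind of set and level were not separated among the called members. Over all genes tested the x sets had 15.1% higher and 2.57% lower in KO, the s sets 7.72% higher and 9.09% lower, the a sets 5.62% higher and 12.7% lower, and the plain sets 4.67% higher and 10.2% lower. The a sets, which hold 3 of the 5 rises, thus leaned lower over all genes, as the plain sets did. Whether direction depends on the kind of set within the family was not tested. Members with 1 probe set, 34 in all, had 8 falls, 0 rises and a median of -0.16, and the 42 with several sets had 2 falls, 5 rises and a median of -0.01. That is 23.5% lower with 1 set, and 4.76% lower and 11.9% higher with several. Over all genes tested 10.02% were lower and 5.56% higher. The shares over all genes split by their number of sets were not computed, so this contrast is not read as a result about the family.

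With plain sets alone, a choice made after seeing the data, 61 members had a set above the level filter, and 11 fell (18.0%, beside 11.4% of all genes so represented) while 0 rose (beside 4.55%). Of the 17 large and 8 small subunit genes then under an unadjusted p of 0.05, 6 large and 5 small passed. The 11 held 8 of the 10 falls found with the brightest sets, and also Mrpl28 (-0.31), Mrps15 (-0.31) and Mrps6 (-0.69). Their adjusted p-values were 0.0188, 0.0304 and 0.0065 (limma). Mrpl28 is the counterpart of bacterial L28 and Mrps15 that of S15. The median change was -0.13 over these members and -0.02 over all genes. In the 19 members that have both a brightest set of another suffix and a plain set above the filter, the plain set gave the lower change in 15, or 78.9%, beside 69.8% of the 1661 such genes on the whole array, and the sign was opposite in 14. In each of these genes the plain set is the dimmer of the pair by construction, so kind of set and level cannot be told apart here. The lower change on the plain, dimmer set is shared by most such genes on the whole array. The cause of the difference between kinds of probe sets was not tested.

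**Figure D3:**
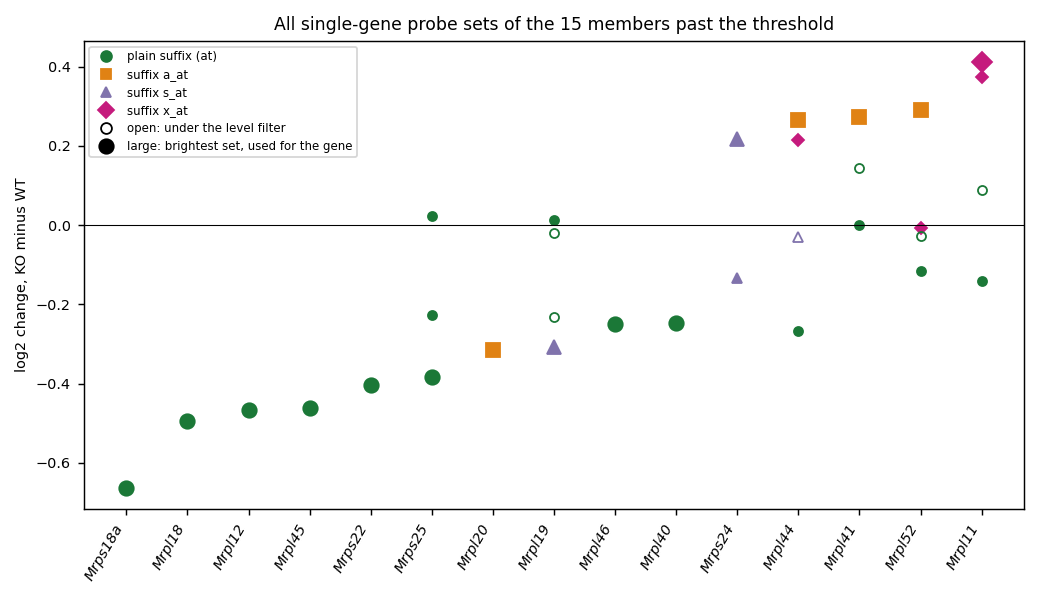
Change on every single-gene probe set (vertical axis, KO minus WT on the log2 scale) of the 15 members past the threshold, in the order of the change on the brightest set (large symbols). Colours and shapes give the suffix, and open symbols lie under the level filter; the 5 genes on the right, from Mrps24 to Mrpl11, are high on a set of suffix a, s or x, and each has another set near or under 0, such as -0.27 for Mrpl44.

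Among the KO lungs, replicate 2 stood apart in this family. It was the highest of the 3 KO arrays in 54 of the 76 members, or 71.1%, beside 40.8% of all genes tested, and the share was alike in the large (72.3%) and the small subunit (69.0%). KO replicate 3 was the lowest in 41 members, or 53.9%, beside 35.1% of all genes tested. The median deviation of the large subunit genes from their 7-array means was -0.06, 0.06 and -0.11 on the KO arrays, against 0.03, 0.04, 0.03 and 0.07 on the WT arrays. For the small subunit it was -0.05, 0.06 and -0.11 on the KO arrays, against 0.01, -0.00, 0.04 and 0.03 on the WT arrays. Over all genes it stayed between -0.01 and 0.01. The subunits thus moved together from array to array, with KO replicate 2 at or above the WT level and the other KO arrays beneath it. The same array had the highest beta-actin 3′ minus 5′ and Gapdh 3′ minus middle differences of the 7, whereas beta-actin 3′ minus middle was highest on KO replicate 3 (2.84, 2.89 and 3.34 on the KO arrays), the array most often lowest in the family. The part of these control differences in the family's level was not tested.

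**Figure D4:**
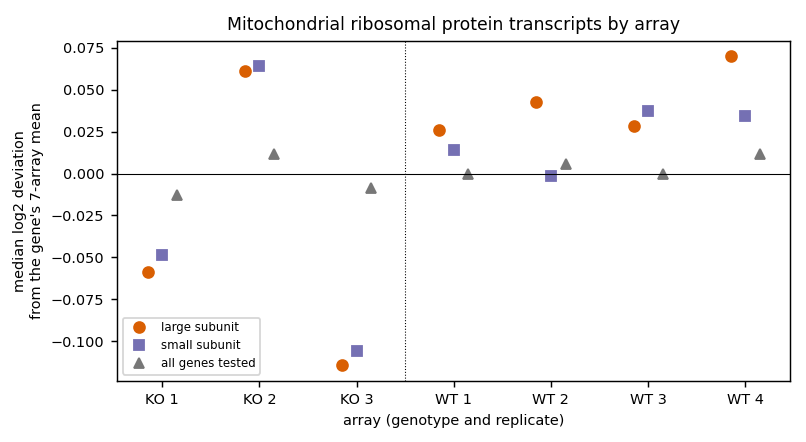
Median deviation of the large subunit (circles), small subunit (squares) and all genes tested (triangles) from each gene's 7-array mean, on the log2 scale (vertical axis), for the 3 KO and the 4 WT arrays. KO replicates 1 and 3 lie at -0.05 to -0.11 for both subunits and KO replicate 2 at 0.06, while all genes stay between -0.01 and 0.01.

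In 19 members, or 25.0%, KO replicates 1 and 3 lay below every WT array and replicate 2 did not, beside 8.08% of all genes. Without KO replicate 2 the count of members past the threshold was 24, of which 21 were lower (beside 9.97% of all genes) and 3 higher (beside 4.72%). That set shares 12 genes with the 15 found on all arrays and adds 12, all of them lower: Mrpl21, Mrpl27, Mrpl32, Mrpl34, Mrpl35, Mrpl42, Mrpl43, Mrpl49, Mrps21, Mrps31, Mrps33 and Mrps35. Among them Mrpl42 and Mrpl27 had the largest changes, -0.57 in both, with adjusted p-values of 0.0240 and 0.0488. On all arrays Mrpl42 read 9.00, 9.51 and 9.06 in KO, against 9.43, 9.82, 9.57 and 9.59 in WT, and Mrpl27, the counterpart of bacterial L27 near the peptidyl transferase centre, read 7.98, 8.43 and 7.61 in KO, against 8.23, 8.28, 8.29 and 8.66 in WT. In both genes replicate 2 lies among the WT values and the other 2 KO arrays do not. These 12 were listed after their values were seen. KO replicate 2 was itself singled out from these values, as the KO array most often highest in the family. Leaving it out lowers the KO mean of most members by construction. The 19 members and the 24 calls are therefore a description of that array and no separate support for a fall.

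Left out one array at a time, 6 of the 15 members passed in all 7 fits: Mrps18a, Mrpl11, Mrpl12, Mrpl18, Mrps25 and Mrpl20, with adjusted p-values up to 0.0485 (Mrpl20). Mrpl52 was lost, at an adjusted p of up to 0.0591, when KO replicate 3 or WT replicate 1 or 4 was left out, and Mrpl44, at up to 0.0642, when WT replicate 1, 3 or 4 was. Mrps22 passed only without KO replicate 2 or WT replicate 1 (up to 0.101 otherwise). Mrpl19, Mrpl45 and Mrpl40 passed only without KO replicate 2, Mrpl46 only without KO replicate 3 and Mrps24 only without KO replicate 1. Among these 5 the highest adjusted p was 0.115 (Mrpl40). Mrpl41 passed in none of the 7, with adjusted p between 0.0511 and 0.0831. None of the 15 changed direction in any of these fits. The members called numbered 9, 24 and 8 without KO replicate 1, 2 or 3, and 7, 8, 7 and 6 without WT replicate 1, 2, 3 or 4. The calls over all genes also differed between these fits, with 9.97% lower and 4.72% higher without KO replicate 2. The shares over all genes are not set beside the other counts, so the counts are not read as a result about the family.

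Other ribosomal and respiratory genes give a scale for these values. Of 40 tested cytosolic ribosomal protein genes 7 fell (17.5%) and 2 rose (5.0%), with a median change of -0.06. Of 78 tested nuclear genes for subunits of the respiratory chain and ATP synthase 10 fell (12.8%) and 3 rose (3.85%), with a median of -0.03. Over all genes tested 10.02% were lower and 5.56% higher. Neither was tested against the mitochondrial ribosomal proteins.

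The factors that work with the mitochondrial ribosome showed calls in both directions. Of 15 translation factors 1 fell and 1 rose, with a median of -0.05. Mrrf, which recycles ribosomes after termination, read 8.32, 8.20 and 8.15 on KO arrays, against 8.51, 8.55, 8.57 and 8.54 on WT arrays (change -0.32, adjusted p = 0.0141). Guf1, the counterpart of the bacterial factor LepA, read 6.76, 6.80 and 6.83 on KO arrays, against 6.39, 6.39, 6.37 and 6.54 on WT arrays (change 0.37, adjusted p = 0.0100). The groups do not overlap in either gene. With the mean over its probe sets Guf1 changed by 0.14 and did not pass (adjusted p = 0.189, limma), whereas Mrrf did. All 4 mitochondrial ribosome proteins that carry other symbols had negative changes with a median of -0.12, and none passed.

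Of 27 tested assembly and rRNA modification genes 1 fell and 3 rose, with a median of 0.09. Noa1, a GTPase needed for the small subunit, read 6.67, 6.85 and 6.74 on KO arrays, against 7.05, 7.06, 7.17 and 7.37 on WT arrays (change -0.41, adjusted p = 0.0233). The rises were Rbfa, which matures small subunit rRNA (0.28, adjusted p = 0.0204), Fastkd2, an RNA-binding protein of large subunit biogenesis (0.34, adjusted p = 0.0210), and the RNA methyltransferase Trmt61b (0.26, adjusted p = 0.0292). Rbfa and Trmt61b are on plain sets and Fastkd2 on an a set. With the mean over its probe sets Fastkd2 changed by 0.12 and did not pass (adjusted p = 0.180, limma).

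Of 20 tested mitochondrial aminoacyl-tRNA synthetases and related enzymes 2 fell and 1 rose, with a median of 0.08. Kars read 7.53, 7.52 and 7.10 on KO arrays, against 7.98, 8.01, 7.96 and 8.29 on WT arrays (change -0.68, adjusted p = 0.0130), and Gars changed by -0.36 (adjusted p = 0.0416). Both genes charge tRNA for the cytosol as well as for mitochondria. Qrsl1, a subunit of the enzyme that makes mitochondrial glutaminyl-tRNA, changed by 0.37 (adjusted p = 0.0401) on an s set and by -0.27 on its plain set.

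Of 20 regulators of mitochondrial transcription and biogenesis 3 fell and 1 rose, with a median of -0.04. Pprc1, a coactivator related to PGC-1, read 7.37, 7.37 and 7.67 on KO arrays, against 7.97, 8.09, 8.59 and 8.07 on WT arrays (change -0.71, 1.64-fold lower, adjusted p = 0.0200). Tfb2m, a transcription factor of the mitochondrial genome, read 8.43, 8.58 and 8.33 on KO arrays, against 8.97, 9.03, 8.74 and 8.82 on WT arrays (change -0.44, adjusted p = 0.0183). Polg, the mitochondrial DNA polymerase, changed by -0.31 (adjusted p = 0.0326), and the nuclear receptor Esrra by 0.36 (adjusted p = 0.0489). The groups do not overlap in any of the 4. With the mean over a gene's probe sets Polg (-0.17, adjusted p = 0.125, limma) and Esrra (0.22, adjusted p = 0.0899, limma) did not pass, whereas Pprc1 and Tfb2m did.

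Of 17 protein import genes 0 fell and 2 rose, with a median of -0.04, and of 17 genes of the outer membrane, cristae and matrix used as a measure of mitochondrial content 1 fell and 2 rose, with a median of -0.04. The import genes were Timm44 (0.36, adjusted p = 0.0111) and Timm17b (0.23, adjusted p = 0.0401), and the content genes that rose were the carrier Slc25a4 (0.26, adjusted p = 0.0212) and citrate synthase Cs (0.28, adjusted p = 0.0253). All 4 rises were on a or x sets, and plain sets gave -0.38 for Timm44, -0.18 for Timm17b and -0.09 for Cs. Immt, which organises cristae, read 7.96, 8.09 and 8.00 on KO arrays, against 8.44, 8.37, 8.40 and 8.48 on WT arrays (change -0.41, adjusted p = 0.0080).

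These are whole lungs, so fewer cells of a type and less RNA per cell cannot be told apart. Markers of the lung epithelium (type 1, type 2 and club cells) and of alveolar macrophages were all above the level filter with 0 calls. Marker levels were summed on the linear scale and the sum was put back on the log2 scale, so the brightest marker weighs most. For the 3 type 2 cell markers this summed level was 14.72 to 14.75 on KO arrays and 14.85 to 15.04 on WT arrays. Of these, Sftpb changed by -0.74 (adjusted p = 0.0686, limma) and Sftpc by -0.12, with KO arrays all below WT arrays in both. Sftpa1 changed by -0.18 with overlapping groups. Of 3 endothelial markers Pecam1 (-1.22) and Tie1 (-0.83) fell, and Cdh5, the brightest, changed by -0.15 without passing (adjusted p = 0.221, limma). Their summed levels were 10.77 to 11.06 on KO arrays and 11.20 to 11.40 on WT arrays. Cardiac muscle, a mitochondria-rich tissue that reaches into the pulmonary veins of mice, had 4 of 4 markers above the filter, 0 calls and summed levels of 13.40 to 13.90 on KO arrays and 13.17 to 14.06 on WT arrays. Brown and white fat had 1 of 4 markers above the filter and summed levels of 6.92 to 7.48 on KO arrays and 7.17 to 8.24 on WT arrays, and Ucp1 lay under the filter. Skeletal muscle, erythroid cells and thymus each had 1 marker above the filter and 0 calls. The part of any of these cell types in the changes of the ribosomal protein genes was not tested.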

How the data were processed

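Log2 levels of 45101 probe sets on 7 arrays were used as the authors deposited them, to 2 decimals. The tools listed per the submitters' processing notes are Affymetrix Expression Console, RMA and MAS5, and no source used here says which of them made the values. The log base was taken from the range of the values. Of 45037 probe sets that are not controls, 34945 had 1 gene, 932 several and 9160 none in the platform annotation.

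Each of 18194 genes was represented by its single-gene probe set with the highest mean, and 13285 genes were tested, those whose mean reached a log2 level of 5.47 (percentile 40 of the means of all probe sets). The genotypes were compared by lmFit and eBayes (limma 3.58.1, R 4.3.3) without further terms, with Benjamini-Hochberg adjustment over all 13285 and a threshold of 0.05. The fit was first tested on simulated data. Single control values were compared by an exact two-sided permutation test over 35 splits. Array medians lay between 6.10 and 6.15. The number of arrays limits the precision. Intervals are at 95%.

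The members, the lists and the tests were chosen with earlier results of these data known, and no list was tested as a set. Named genes are the members past the threshold, the 3 nearest to it in each subunit, and the called genes of each list. A symbol was counted as having a bacterial counterpart from textbook knowledge. Promoter motifs were searched with Python 3.11.15, and figures were drawn with matplotlib 3.10.9. Alternatives covered scaling, the level filter, the choice of probe set, the variance model, array weights, control covariates, the replicate number, the 5 mice with the lowest mouse numbers and each array left out.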

Additional observations from a re-analysis of the deposited data

Results flagged for a closer look

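2 of the 45 named results looked at had 1 WT array far from the other 3, and chance gives about 1 in 20. For Kars, the lysyl-tRNA synthetase, WT replicate 4, the array with the high Xist level, read 8.29 against 7.96 to 8.01 on the other WT arrays, a gap of 0.849 of the WT range among 4 arrays, past Dixon's limit at the 95% level. For the translation factor Guf1, WT replicate 4 read 6.54 against 6.37 to 6.39, a gap of 0.882 of the range. In Kars the outlying array lies farther from the KO values, and in Guf1 nearer to them. Mitochondrial ribosomal protein genes had no such array among the 21 named.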

How the results depend on the processing

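The replicate numbers did not pair the arrays (correlations of same-numbered deviations 0.00, -0.04 and 0.04). With a replicate block 371 genes passed in all, 0 of the large and 1 of the small subunit (15 and 7 at an unadjusted p under 0.05, limma). With beta-actin 3′ minus 5′ as a covariate 0 genes passed (2204 under an unadjusted 0.05; 10 large, 10 small; small subunit median -0.14). With beta-actin 3′ minus middle 0 passed (1742; 5 and 5; medians -0.0106 large and 0.0926 small, and Mrpl19 at 0.0094). With Gapdh 3′ minus middle 5 passed, none a member (2726; 15 and 10; small subunit median -0.17). With the 5 mice of lowest mouse numbers 0 passed (2792; 15 and 6). A covariate or a smaller number of arrays leaves fewer degrees of freedom. Leaving out 1 array gave 891 to 1952 genes, 4 to 17 of the large and 2 to 7 of the small subunit.

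With plain sets alone 6 large subunit genes passed, and the sign turned for Mrpl11 (-0.14), Mrpl52 (-0.12), Mrpl44 (-0.27), Mrpl41 (-0.0008), Mrpl19 (0.0133), Mrpl21 (0.15), Qrsl1 (-0.27), Cs (-0.0892), Timm44 (-0.38), Timm17b (-0.18) and Fastkd2 (-0.0483). With the mean over a gene's sets it turned for Mrpl21 (0.0153) and Slc25a4 (-0.046), and the large subunit had 7 falls and 1 rise. The rises of Mrpl52 (0.035), Mrpl44 (0.045), Mrpl41 (0.139) and Mrps24 (0.0417) no longer passed, nor did the falls of Mrpl19 (-0.14) and Mrps25 (-0.20), while Mrpl11 (0.18) did and Mrps6 (-0.51) now passed. Of the list genes Guf1 (0.14), Fastkd2 (0.12), Qrsl1 (0.05), Cs (0.03), Timm44 (0.09), Timm17b (0.03), Polg (-0.17) and Esrra (0.22) were lost with that mean. The small subunit median, near 0, was 0.01 after quantile normalization. Counting Mrps18a and Mrps30 with the large subunit and leaving out Mrps36 gave 12 large and 3 small calls. Other level filters, the intensity trend, array weights and updated symbols kept both subunit counts within 1.5 times. The cause of these changes was not tested.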
